A study of Mus musculus with 12 samples.

Results

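Fibrillar collagen leaves the cell as a soluble precursor, and a small group of secreted proteins turns it into fixed fiber. The 10 genes described here encode that group and were taken by symbol from the 18996 genes of a table of read counts for paraspinal tissue of 12 mice. They were the procollagen N-propeptidases Adamts2 and Adamts14, the C-proteinase Bmp1, its enhancers Pcolce and Pcolce2, and the lysyl oxidases Lox, Loxl1, Loxl2, Loxl3 and Loxl4. All 10 were found, and all 10 passed the filter on low counts that left 14765 genes for testing. The mice were BALB/c, 5 to 7 weeks old, in 3 groups of 4. The No operation group gave normal soft tissue beside the spine, without surgery. In the SHAM group the paraspinal soft tissue had been removed and the lamina left in place, and in the Laminectomy group the lamina had been excised as well. Tissue was taken on day 7, and the samples of both operated groups are labeled as scar tissue. No genetic change or drug was part of these groups, and the sex of each mouse is not given in the sources used here. The comparisons ask how the enzymes of collagen maturation differ in early scar and whether removal of bone adds to the difference.

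Removal of the propeptides at each end of procollagen lets the trimmed molecules assemble into fibrils. ADAMTS2 and ADAMTS14 remove the amino-terminal propeptide, and BMP1 removes the carboxy-terminal propeptide with the help of PCOLCE, which binds the substrate and speeds cleavage. Lysyl oxidases then oxidize lysine and hydroxylysine side chains, which react to form the covalent crosslinks that make scar stiff and resistant to turnover.

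Levels are given as CPM, counts scaled to a library of 1000000 after correction for library composition, and values for each group are listed for mice 1 to 4. Total counts per mouse lay between 16802988 and 18077863. A gene was called where edgeR's quasi-likelihood test gave a Benjamini-Hochberg adjusted p below 0.05 over all genes tested and the log2 fold change passed 0.5 in either direction. By that rule 8 members rose and 1 fell in SHAM against No operation, and 7 rose and 1 fell in Laminectomy against No operation. Among all genes tested, 50.8% were called in the first of these comparisons (25.7% higher and 25.1% lower) and 48.6% in the second (24.2% higher and 24.4% lower), so a call was common among all genes. The median log2 fold change of the 10 members was 1.73 in SHAM and 1.54 in Laminectomy, beside -0.002 and 0.009 for all genes. With scaling by total counts in place of library composition, the median of all genes moved to 0.25 and 0.33, and the split of calls went from 3799 higher and 3703 lower to 5179 and 2671 in SHAM, and from 3578 and 3605 to 5456 and 2347 in Laminectomy. Upper-quartile scaling moved the median in Laminectomy to 0.14.

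The composition of the tissue differed between unoperated and operated mice. Skeletal muscle markers were called lower for 8 of 8 genes in both operated groups, with a summed level of 74370 to 109730 CPM in No operation, 1864 to 7289 in SHAM and 2455 to 10546 in Laminectomy. The macrophage markers were called higher for 6 of 6 genes in SHAM and 5 of 6 in Laminectomy, and their summed level was 320 to 911 CPM in No operation, 1886 to 4408 in SHAM and 1267 to 2029 in Laminectomy. Of the fibroblast markers, 5 of 8 were higher and 1, Dcn, was lower in each operated group, and their sum ranged from 7768 to 24562 CPM without surgery, 32528 to 44108 in SHAM and 33192 to 48603 in Laminectomy. Most of that sum was Col1a1 and Col1a2, which are also substrates of the members. The sum of the other 6 fibroblast markers was 3374 to 6208 CPM without surgery, 2662 to 3878 in SHAM, with overlap, and 1394 to 2704 in Laminectomy. Dcn was the largest term of this second sum, with means of 3288, 1711 and 991 CPM in No operation, SHAM and Laminectomy. Of the rest, Pdgfra, Thy1 and Lum were called higher in SHAM, where Fap and Dpt were not called. In Laminectomy Thy1, Lum and Fap were called higher, and Pdgfra and Dpt were not called. Adipocyte markers were called lower for 3 of 5 genes in SHAM and 5 of 5 in Laminectomy, with sums of 1146 to 2179 CPM in No operation, 249 to 1295 in SHAM and 72.5 to 401 in Laminectomy. Tendon markers were called lower for 3 of 5 in SHAM and for Fmod alone in Laminectomy, and their sum was 2932 to 7848, 303 to 2372 and 1159 to 2602 CPM. Of 6 smooth muscle and pericyte markers, Acta2 and Pdgfrb were among those called higher and Rgs5 and Myh11 among those called lower in both operated groups. Of 6 cartilage markers, Sox9 was called higher and Chad lower in both, and Acan higher in Laminectomy (log2 fold change of 3.17), where Runx2 was the 1 osteoblast marker called higher (1.88) and Alpl was called lower in SHAM (-2.12). Of 6 neutrophil markers, Csf3r was called higher in SHAM (2.62) and Mmp9 in Laminectomy (2.65), and the other 5 were not called in each comparison. No operation 2 had the highest unoperated level of Csf3r (81.0 CPM, others 2.24 to 33.9), Mmp9 (444, others 6.73 to 134), Runx2 and Acan. Of 5 endothelial markers, Kdr alone was called lower in both groups, and Pecam1, Cdh5, Tie1 and Emcn were not called. In bulk tissue, fewer cells of a type and less RNA per cell cannot be told apart, and the part of these shifts in the results below was not tested. Single libraries stood apart as well. No operation 1 had Postn at 2053 CPM against 99.6 to 330 in the other unoperated mice, No operation 2 had the highest osteoblast marker sum without surgery (553 CPM, against 26.6 to 176) and a neutrophil sum of 2123 CPM against 20.4 to 804, SHAM 1 had the lowest muscle and highest macrophage sums of its group, and so did Laminectomy 1 in its own (muscle 2455 CPM against 8122 to 10546, macrophage 2029 against 1267 to 1455), which also had the lowest adipocyte sum. Laminectomy 2 had central glia and myelin markers at 706 CPM against 30.5 to 185 in the others of its group. Mobp and Mog, which define myelinating glia, were at 22.9 and 7.56 CPM in Laminectomy 2 and at 5.39 and 1.35 CPM in Laminectomy 3, and the astrocyte gene Gfap was at 52.7 and 18.08 CPM in these mice. In the other 10 mice Mobp was at most 0.067, Mog at most 0.126 and Gfap at most 1.599 CPM.

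Of the 5 crosslinking enzymes, 4 rose in each operated group and Loxl4 was not called. Lox, the founding lysyl oxidase, was at 529.6, 158, 172 and 74.5 CPM in the No operation mice. It was at 1898, 1038, 1458 and 887 CPM in the SHAM mice and at 1284, 784, 1100.2 and 914 CPM in the Laminectomy mice. Each operated mouse lay above every unoperated mouse, and No operation 1 stood well above the other 3 of its group. Lox rose by a log2 fold change of 2.50 ± 0.51 (SE, n = 4 per group; edgeR adjusted p = 0.0014) in SHAM and by 2.13 ± 0.51 (adjusted p = 0.0037) in Laminectomy. Without No operation 1 these values were 3.29 and 2.92, so the size of the Lox change rested in part on that mouse.

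Loxl2, which also acts on basement membrane collagen, was close behind in fold. It was at 275, 109.9, 135 and 84.4 CPM without surgery, at 726, 601, 653 and 811 CPM in SHAM and at 847, 529.8, 491 and 551 CPM in Laminectomy. The groups with and without surgery did not overlap, and Laminectomy 1 was the highest of all 12 mice. Its log2 fold changes were 2.21 ± 0.34 (edgeR adjusted p = 0.00018) in SHAM and 2.00 ± 0.33 (adjusted p = 0.00039) in Laminectomy, or 1.80 without Laminectomy 1, whose marker sums also differed from its group. The gene lies at chr14:69609068-69695834 on the plus strand (GRCm38). An antisense gene, Gm27177, shares 301 of its exon bases (5.57%), and since no strand setting beyond the counter's default is stated, reads of the pair cannot be told apart.

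Loxl1, which is best known for crosslinking elastin (chr9:58287738-58313186, minus strand), was at 133, 49.0, 58.1 and 43.0 CPM in No operation. The SHAM mice were at 304, 305, 285 and 257 CPM and the Laminectomy mice at 225, 197, 195 and 215 CPM. The 3 groups did not overlap at any point, with SHAM highest, Laminectomy between and No operation lowest. The gene rose by a log2 fold change of 2.02 ± 0.30 (edgeR adjusted p = 0.00016) in SHAM and by 1.56 ± 0.30 (adjusted p = 0.00098) in Laminectomy.

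Loxl3 (chr6:83034173-83052562, plus strand), which acts in developing skeletal and craniofacial tissue, was the only called lysyl oxidase whose fitted change was larger in Laminectomy than in SHAM. Its levels were 66.1, 40.6, 54.9 and 38.7 CPM without surgery, 123, 133, 154 and 143 CPM in SHAM and 225, 157, 154 and 143 CPM in Laminectomy. All operated mice lay above all unoperated mice, and Laminectomy 1 lay far above the other 11. The log2 fold changes were 1.47 ± 0.19 (edgeR adjusted p = 6.6e-05) in SHAM and 1.76 ± 0.19 (adjusted p = 3.0e-05) in Laminectomy, and the difference between the operated groups, 0.29 ± 0.19, did not pass the test (adjusted p = 0.47). Without Laminectomy 1 the Laminectomy value was 1.596 and the difference 0.13. Htra2, on the opposite strand, shares 535 of the exon bases of Loxl3 (11.62%), and reads of this pair cannot be told apart either. Htra2 itself was at 26.1 ± 3.50 CPM (SD, n = 4) in No operation, 39.0 ± 5.97 in SHAM and 38.2 ± 3.60 in Laminectomy, with log2 fold changes of 0.58 and 0.55.

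Loxl4 (chr19:42593982-42612813, minus strand) was the exception of the family. It was at 29.1, 21.3, 29.97 and 13.5 CPM in No operation, at 21.8, 17.7, 25.7 and 22.0 CPM in SHAM and at 24.1, 32.2, 19.7 and 18.8 CPM in Laminectomy. The 3 groups overlapped throughout. The log2 fold change was -0.11 (95% interval -0.65 to 0.44; edgeR adjusted p = 0.73) in SHAM and 0.01 (-0.53 to 0.56; adjusted p = 0.96) in Laminectomy, and neither passed. Scaling by total counts turned the SHAM value to 0.15, which also did not pass.

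**Figure D1:**
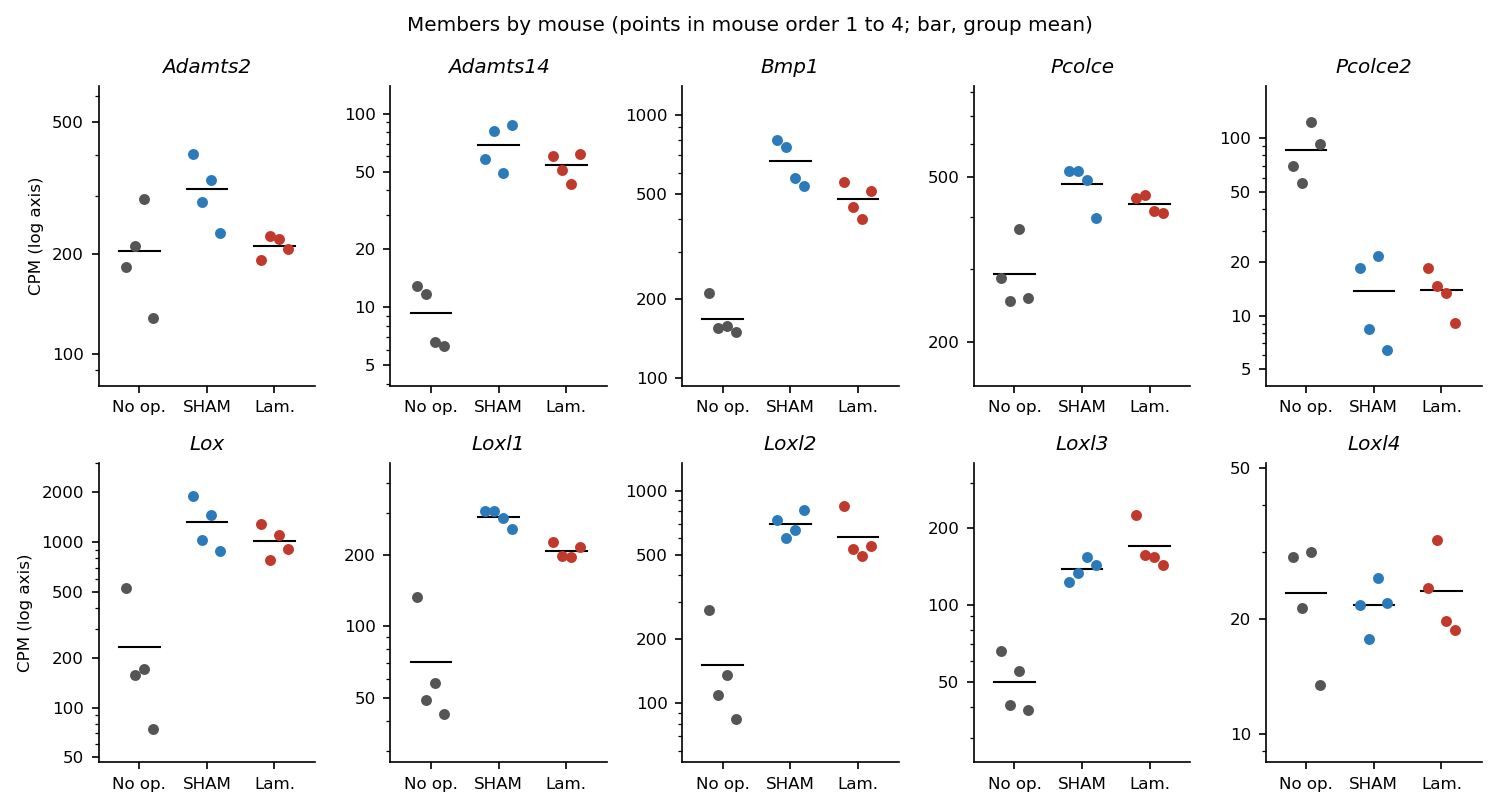
Level of each of the 10 genes in CPM on a log axis, with a point for each mouse in the order 1 to 4 and a bar at the group mean, for No operation (No op.), SHAM and Laminectomy (Lam.). In 7 panels every operated mouse lies above every unoperated mouse; Pcolce2 is reversed, and Adamts2 and Loxl4 overlap.

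The propeptide-cleaving proteins split by isoenzyme. Bmp1 (chr14:70474558-70520234, minus strand), the main procollagen C-proteinase, was at 210.0, 155, 158 and 149 CPM in No operation. It was at 803, 755, 576 and 538 CPM in SHAM and at 555, 447, 401 and 514 CPM in Laminectomy. Operated and unoperated mice were well apart, and the 2 operated groups overlapped only in the range of 538 to 555 CPM. Bmp1 rose by a log2 fold change of 1.99 ± 0.18 (edgeR adjusted p = 7.1e-06) in SHAM and 1.51 ± 0.18 (adjusted p = 4.1e-05) in Laminectomy, the smallest standard errors among the members that rose by more than 1.

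The enhancers Pcolce and Pcolce2 moved in opposite directions. Pcolce (chr5:137605103-137613784, minus strand) was at 285, 251, 374 and 255 CPM in No operation, at 517, 516, 490.1 and 398 CPM in SHAM and at 444, 451, 412 and 408 CPM in Laminectomy. No operation 3 came near the lowest operated mouse, and no group with surgery overlapped the group without. The rise was modest, with log2 fold changes of 0.72 ± 0.14 (edgeR adjusted p = 0.0011) in SHAM and 0.56 ± 0.14 (adjusted p = 0.0058) in Laminectomy. The second value lies near the fold threshold and fell to 0.49 without No operation 2, which ended the call. Fbxo24 on the same strand and the antisense gene Gm36266 each share 112 of its exon bases (2.93%), and Fbxo24 was at 0.320 to 1.498 CPM over all 12 mice.

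Pcolce2 (chr9:95637601-95698096, plus strand), the close relative of Pcolce that acts on the same substrate, was the only member that fell. It was at 69.5, 56.1, 123 and 92.9 CPM in No operation, at 18.7, 8.40, 21.8 and 6.46 CPM in SHAM and at 18.6, 14.8, 13.4 and 9.07 CPM in Laminectomy. The highest operated mouse was below the lowest unoperated mouse by more than a factor of 2. Its log2 fold changes were -2.63 ± 0.40 (edgeR adjusted p = 0.00019) in SHAM and -2.61 ± 0.40 (adjusted p = 0.00023) in Laminectomy. The skeletal muscle, tendon and adipocyte marker sums were also lower in every operated mouse than in every unoperated mouse, apart from SHAM 3 (1295 CPM), whose adipocyte sum lay above that of No operation 1 (1146 CPM). Within SHAM, mice 1 and 3 had both the higher Pcolce2 levels and the higher adipocyte sums (499 and 1295 CPM, against 249 and 325), while within Laminectomy mouse 1 had the highest Pcolce2 level and the lowest adipocyte sum. The part of these tissues in the level of Pcolce2 was not tested.

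Since this pair moved apart, the RefSeq promoter windows of both genes (GRCm38.p6, 250 bases before to 50 after the RefSeq start site) are set side by side, with each match to the GC box GGGCGG or its other strand CCGCCC in capitals. The Pcolce window is set around a RefSeq start site that lies inside the longer span given for the gene above.
Pcolce (chr5:137611355-137611654, - strand): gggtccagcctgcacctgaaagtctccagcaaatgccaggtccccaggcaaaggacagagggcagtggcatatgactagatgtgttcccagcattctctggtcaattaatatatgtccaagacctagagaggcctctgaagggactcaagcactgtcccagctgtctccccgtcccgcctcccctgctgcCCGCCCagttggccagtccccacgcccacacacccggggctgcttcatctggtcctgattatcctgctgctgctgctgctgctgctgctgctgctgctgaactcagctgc
Pcolce2 (chr9:95637378-95637677, + strand): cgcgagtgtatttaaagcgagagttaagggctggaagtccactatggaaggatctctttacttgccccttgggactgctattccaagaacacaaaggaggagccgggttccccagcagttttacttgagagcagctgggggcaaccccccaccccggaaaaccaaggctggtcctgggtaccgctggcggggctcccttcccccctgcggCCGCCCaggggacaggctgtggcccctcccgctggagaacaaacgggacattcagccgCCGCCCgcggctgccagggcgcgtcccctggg
The Pcolce window holds 1 GC box and has a GC content of 59.3%, and the Pcolce2 window holds 2 and has 63.7%, beside a median of 52.7% over all 32851 windows of that length. A GC box is present in 35.7% of all windows. Neither window holds the Smad element CAGAC (both strands, in 49.6% of all windows), the CCAAT box (CCAAT or ATTGG, 37.4%) or the TATA box TATAAA (both strands, 13.6%). These are matches of letters only.

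The N-propeptidases also differed from each other. Adamts14 (chr10:61197112-61273438, minus strand) was the least abundant member without surgery, at 12.8, 11.7, 6.59 and 6.24 CPM. It was at 58.2, 81.5, 49.0 and 86.8 CPM in SHAM and at 60.4, 51.1, 43.3 and 62.1 CPM in Laminectomy. The lowest operated mouse was more than 3-fold above the highest unoperated mouse. Its log2 fold changes, 2.88 ± 0.27 (edgeR adjusted p = 1.0e-05) in SHAM and 2.54 ± 0.27 (adjusted p = 2.5e-05) in Laminectomy, were the largest rises of the set with all mice in the fit. Without No operation 1 the SHAM value of Lox (3.29) was above that of Adamts14 (3.07), and the Laminectomy values were 2.92 and 2.73.

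Adamts2 (chr11:50602084-50807573, plus strand), the isoenzyme whose loss causes dermatosparactic skin fragility, had much smaller fitted values. It was at 183, 213, 294 and 129 CPM in No operation, at 402, 287, 334 and 233 CPM in SHAM and at 192, 227, 223 and 207 CPM in Laminectomy. SHAM overlapped No operation, and the Laminectomy mice all lay inside the unoperated range. The log2 fold change of 0.62 ± 0.23 in SHAM was called (edgeR adjusted p = 0.034), but the call was lost without No operation 1, 2 or 4 or without SHAM 1 or 3 (log2 fold changes of 0.45 to 0.64, adjusted p = 0.055 to 0.11). In Laminectomy the value was 0.05 (95% interval -0.45 to 0.56; edgeR adjusted p = 0.85).

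Since the fitted changes of this pair differed in size, its promoter windows are shown too, with GC boxes in capitals; in Adamts14 some of the boxes overlap or adjoin.
Adamts2 (chr11:50601835-50602134, + strand): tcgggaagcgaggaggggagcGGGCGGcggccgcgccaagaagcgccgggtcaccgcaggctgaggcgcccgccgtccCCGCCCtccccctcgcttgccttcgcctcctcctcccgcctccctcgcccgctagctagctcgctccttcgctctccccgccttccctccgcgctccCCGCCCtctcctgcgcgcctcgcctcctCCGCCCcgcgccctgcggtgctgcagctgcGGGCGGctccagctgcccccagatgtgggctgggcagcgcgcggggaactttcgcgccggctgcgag
Adamts14 (chr10:61273370-61273669, - strand): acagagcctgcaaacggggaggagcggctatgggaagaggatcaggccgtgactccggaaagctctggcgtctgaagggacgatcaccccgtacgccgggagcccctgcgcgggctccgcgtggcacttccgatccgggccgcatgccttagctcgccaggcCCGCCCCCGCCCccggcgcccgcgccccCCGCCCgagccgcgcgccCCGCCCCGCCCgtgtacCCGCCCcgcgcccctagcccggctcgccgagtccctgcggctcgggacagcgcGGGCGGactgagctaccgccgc
The Adamts2 window holds 5 GC boxes at a GC content of 77.3% and the Adamts14 window 7 at 76.7%. The Smad element CAGAC or GTCTG occurs 1 time in the Adamts14 window, 181 bases before the start site, and is not in the Adamts2 window, and neither window holds CCAAT or TATAAA. RefSeq windows were matched for 5 of the 10 members, the fifth being Loxl4 with 3 GC boxes.

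In counts of members whose groups did not overlap, 8 of 10 were separated in SHAM against No operation and 8 of 10 in Laminectomy against No operation, beside 54.5% and 56.0% of all genes tested. These 8 genes were all members but Adamts2 and Loxl4 in both comparisons. Full separation of 4 mice from 4 always gives p = 0.0286 in the two-sided exact permutation test, here on log2 CPM, the smallest that is possible. That p therefore restates the separation of these 8 genes and adds no support to it. Both comparisons share the No operation mice.

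**Figure D2:**
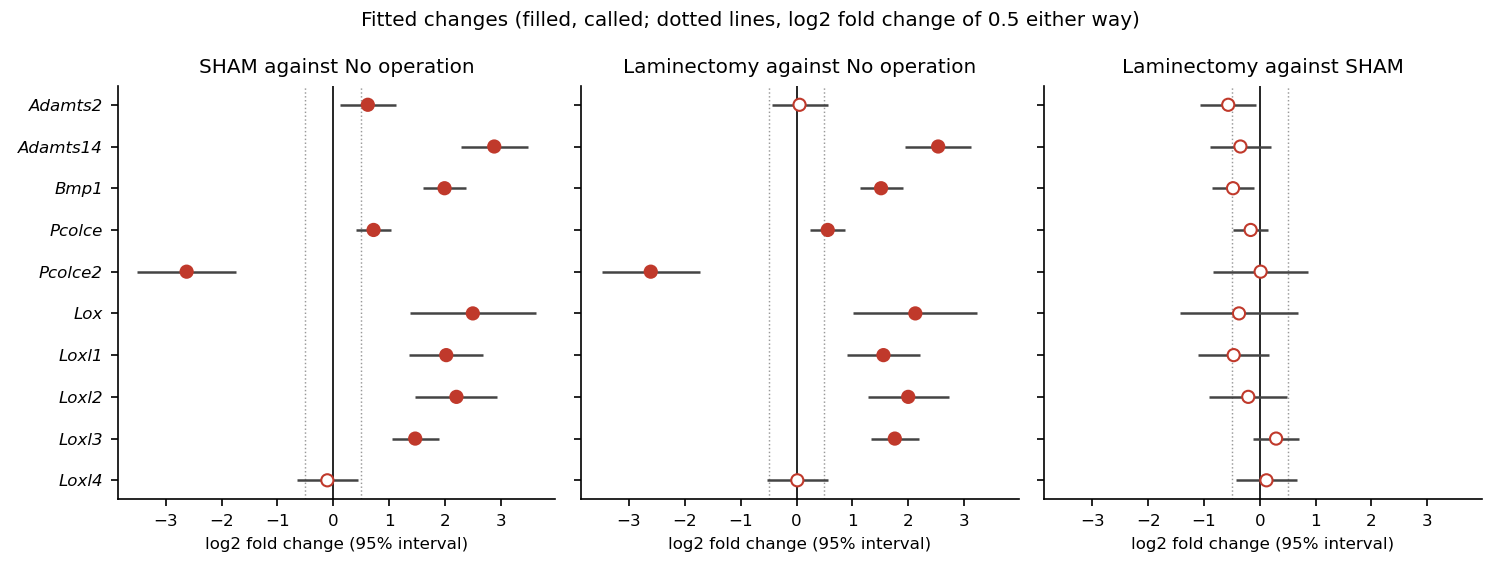
Fitted log2 fold change of each member with its 95% interval in SHAM against No operation, Laminectomy against No operation and Laminectomy against SHAM; filled points are called, and dotted lines mark 0.5 in either direction. Of the 10 members, 9 are filled for SHAM and 8 for Laminectomy against No operation, and none for Laminectomy against SHAM.

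Between the 2 operations no member was called, and neither was any of the 14765 genes (0.0%). At an unadjusted p below 0.05 edgeR gave 2 members, Bmp1 and Adamts2, beside 16% of all genes. DESeq2 also called no member and gave the same 2 at an unadjusted p below 0.05, although it called 4.2% of all genes tested. Adamts2 was lower in Laminectomy by a log2 fold change of -0.56 (95% interval -1.07 to -0.06; edgeR adjusted p = 0.26) and Bmp1 by -0.48 (-0.86 to -0.10; adjusted p = 0.21). Without SHAM 1 neither passed the unadjusted threshold, with log2 fold changes of -0.42 and -0.37. The groups did not overlap for 2 members, Adamts2 and Loxl1, both lower in Laminectomy, beside 10.1% of all genes. The Loxl1 difference was -0.47 (-1.11 to 0.17; edgeR adjusted p = 0.45).

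The other members differed between the operations by log2 fold changes of -0.37 for Lox (95% interval -1.44 to 0.69), -0.35 for Adamts14 (-0.90 to 0.20) and -0.21 for Loxl2 (-0.91 to 0.50). Pcolce was at -0.16 (-0.48 to 0.15), Pcolce2 at 0.02 (-0.83 to 0.86), Loxl3 at 0.29 (-0.12 to 0.70) and Loxl4 at 0.12 (-0.42 to 0.66). A difference of 2-fold in Lox lay inside its interval and a difference of 2-fold in Pcolce lay outside. In the same comparison the osteoblast markers reached an unadjusted p below 0.05 for 5 of 6 genes and the cartilage markers for 6 of 6, all higher in Laminectomy and none called. Their summed levels were 28.5 to 156 and 12.03 to 132 CPM in SHAM and 677 to 1873 and 186 to 1085 CPM in Laminectomy. The macrophage markers reached that p for 4 of 6 genes, all lower in Laminectomy, as Bmp1 and Adamts2 were, and the fibroblast markers for 5 of 8, of which 4 (Pdgfra, Thy1, Dcn and Dpt) were lower, again with none called. The part of these markers in the levels of the members was not tested.

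Levels of different genes were compared only as CPM per kilobase of annotated exon (CPM per kb). Without surgery Pcolce led at 76.2 ± 15.0 CPM per kb (SD, n = 4), above Lox at 48.9 ± 42.3 and Loxl2 at 28.0 ± 15.7. Adamts2 (21.9 ± 7.39), Loxl1 (21.5 ± 12.7), Bmp1 (18.9 ± 3.20) and Pcolce2 (18.4 ± 6.32) lay close together, followed by Loxl3 (10.9 ± 2.80), Loxl4 (5.57 ± 1.83) and Adamts14 (1.79 ± 0.65). Neighbors in this order overlapped between mice except that Loxl3, Loxl4 and Adamts14 were apart from each other. After surgery the order changed at both ends. In SHAM, Lox led at 276 ± 95.2 CPM per kb, apart from Loxl2 (129 ± 16.9) and Pcolce (126 ± 14.7), which overlapped. Loxl1 (87.3 ± 6.82) and Bmp1 (75.3 ± 14.7) overlapped each other, as did Adamts2 (33.6 ± 7.71) and Loxl3 (30.1 ± 2.91), and Adamts14 (13.3 ± 3.49) stood alone above Loxl4 (5.18 ± 0.77) and Pcolce2 (2.99 ± 1.63), which overlapped. In Laminectomy, Lox (214 ± 45.7) again led, ahead of Pcolce (112 ± 5.76) and Loxl2 (112 ± 30.2), and Pcolce2 (3.02 ± 0.85) was again last.

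Each family was also described by its composition, as the share of each gene in the summed CPM per kb of its family. The summed lysyl oxidases went from 115 ± 74.4 CPM per kb (SD, n = 4) without surgery to 528 ± 97.4 in SHAM and 431 ± 81.3 in Laminectomy. Loxl4 made up 3.09%, 6.18%, 7.28% and 5.72% of this sum in the No operation mice, 0.789% to 1.16% in SHAM and 1.04% to 2.10% in Laminectomy. The share of Lox was 38.7% ± 8.97 without surgery, 51.2% ± 8.47 in SHAM and 49.4% ± 4.12 in Laminectomy, with overlap between all groups, and that of Loxl2 was 25.3%, 25.0% and 25.8%. The share of Loxl3 was 4.07% to 6.92% in SHAM and 7.88% to 9.36% in Laminectomy, which did not overlap, and 6.43% to 15.1% without surgery.

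Among the enhancers, Pcolce made up 83.2%, 84.4%, 78.7% and 76.8% of the summed CPM per kb in the No operation mice. Its share was 96.5% to 98.7% in SHAM and 96.6% to 98.2% in Laminectomy. Among the N-propeptidases, for which Adamts3 was added, Adamts14 made up 10.7%, 7.89%, 3.20% and 6.69% without surgery, 20.2% to 38.3% in SHAM and 24.6% to 33.5% in Laminectomy. Adamts3, an isoenzyme known for its action on a lymphatic growth factor, made up 12.6% ± 5.89, 2.76% ± 1.58 and 6.20% ± 0.97. Bmp1 held 94.8% ± 1.08 of the tolloid proteinases (Bmp1, Tll1 and Tll2) without surgery, 98.5% ± 0.36 in SHAM and 98.4% ± 0.28 in Laminectomy. None of the 36 share comparisons passed after adjustment: the two-sided exact permutation test can go no lower than p = 0.0286, and the smallest adjusted p was 0.064, reached among others by Pcolce, Adamts14, Loxl4 and Bmp1 in both operated groups against No operation.

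**Figure D3:**
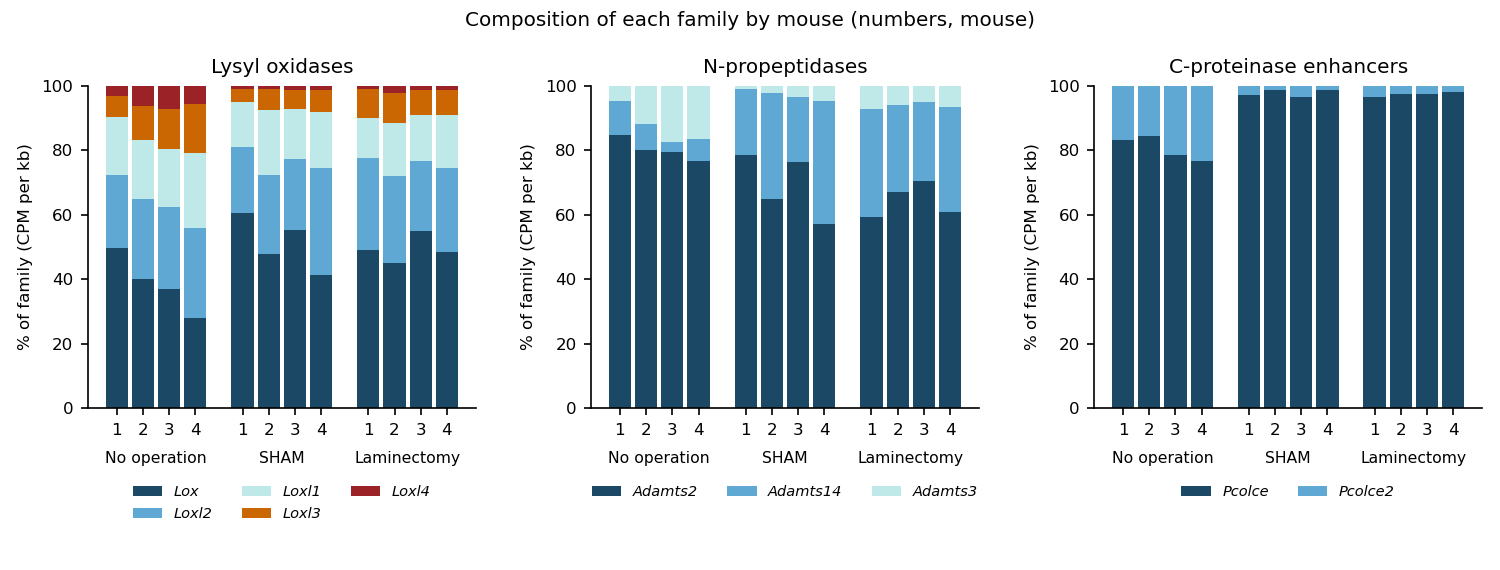
Percent of each family's summed CPM per kb by gene, as stacked bars for mice 1 to 4 of each group, for the lysyl oxidases, the N-propeptidases and the C-proteinase enhancers. The Loxl4 band is 3.09% to 7.28% in the unoperated mice and at most 2.10% after surgery, and the Pcolce2 band nearly disappears.

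The substrates of these enzymes rose as well, so each member was also set against the sum of Col1a1, Col1a2 and Col3a1, the chains of the main fibrillar collagens of scar. The sum was 22835, 23029, 13549 and 5261 CPM in the No operation mice, 51942 to 72500 CPM in SHAM and 47649 to 61328 CPM in Laminectomy. On the log2 scale its means differed by 4.43-fold in SHAM and 3.93-fold in Laminectomy from No operation (two-sided exact permutation p = 0.0286 each, n = 4 per group; adjusted p = 0.043 over 3 tests). Per 1000 CPM of collagen, Lox stood at 14.2 ± 6.76 CPM (SD, n = 4), 20.8 ± 4.40 and 18.8 ± 4.20 CPM in No operation, SHAM and Laminectomy. Loxl2 stood at 10.7 ± 4.69, 11.5 ± 2.77 and 11.1 ± 2.82, and Loxl1 at 5.10 ± 2.55, 4.67 ± 0.42 and 3.83 ± 0.55. The groups overlapped for these 3 genes and for Loxl3, Bmp1 and Adamts14, so for 6 members no difference relative to collagen was resolved.

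The other 4 members were lower per unit of collagen transcript in every operated mouse than in every unoperated mouse. Adamts2 stood at 8.01, 9.23, 21.7 and 24.4 CPM per 1000 CPM of collagen without surgery, at 4.48 to 5.55 in SHAM and at 3.36 to 4.35 in Laminectomy. Pcolce, though called higher in CPM, stood at 12.5, 10.9, 27.6 and 48.4 without surgery, at 7.13 to 8.64 in SHAM and at 7.36 to 8.56 in Laminectomy. Set against the fibroblast marker Pdgfra in place of the collagens, the Laminectomy difference of Pcolce turned from a log2 ratio of -1.40 to 0.32, and neither passed after adjustment. The differences of Adamts2 in both operated groups and of Pcolce in SHAM kept their direction against Pdgfra but were much smaller. Loxl4 stood at 0.927 to 2.56, 0.296 to 0.424 and 0.369 to 0.526, and Pcolce2 at 2.44 to 17.7, 0.124 to 0.338 and 0.190 to 0.326. Each gave p = 0.0286 in the two-sided exact permutation test against No operation, which full separation of the groups always gives. None of the 30 ratio comparisons passed after adjustment (smallest adjusted p = 0.095). Of the 10 members, Adamts2 alone also had Laminectomy apart from SHAM on this scale, by a log2 ratio of -0.36 (exact permutation p = 0.0286, adjusted p = 0.095), which turned to 0.10 against Pdgfra. The spread among unoperated mice was wide, and No operation 4, with the lowest collagen sum, had the highest ratio for all of these 4 members.

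**Figure D4:**
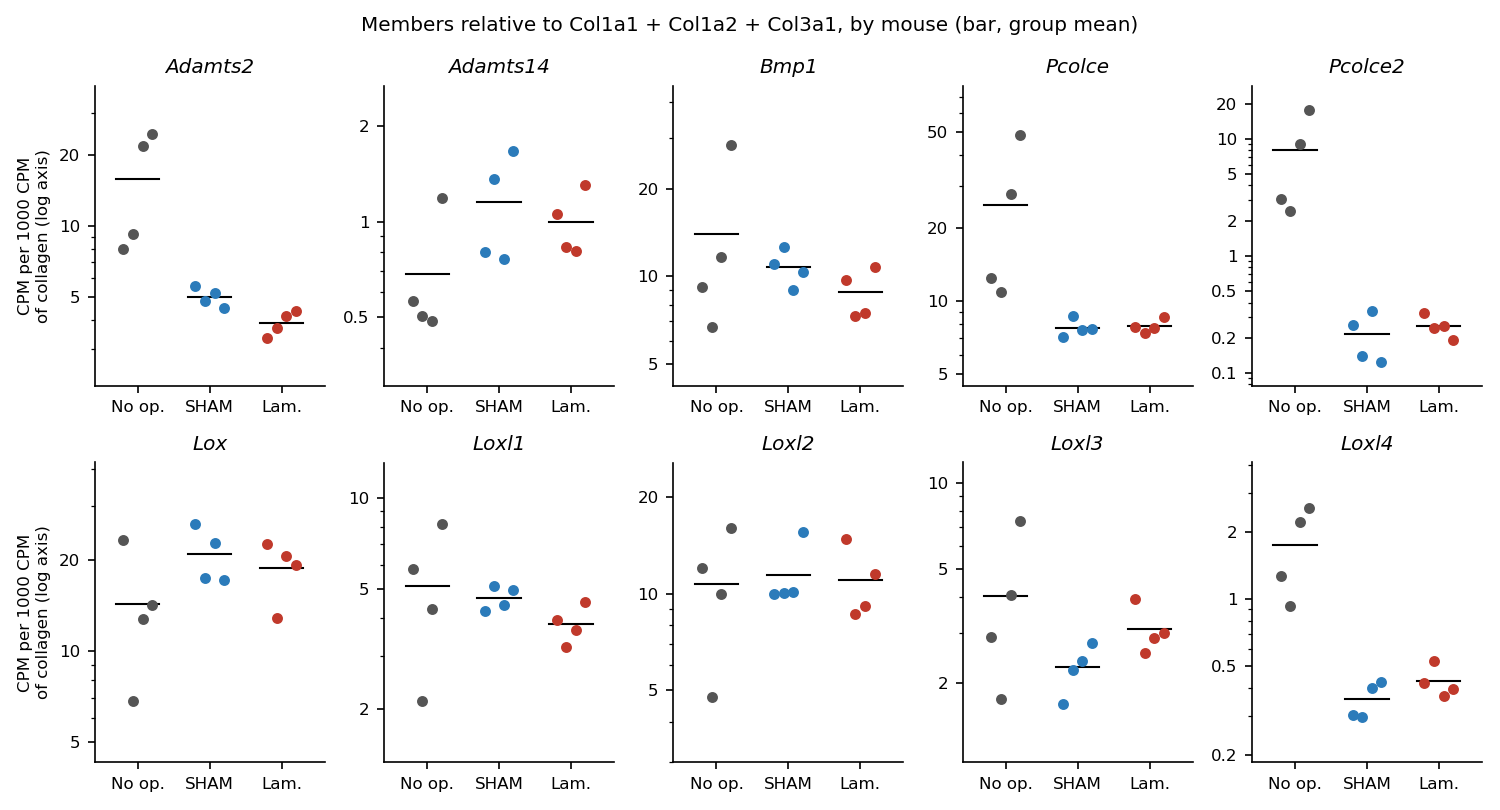
CPM of each member per 1000 CPM of Col1a1, Col1a2 and Col3a1 together, on a log axis, with a point for each mouse in the order 1 to 4 and a bar at the group mean. Adamts2, Pcolce, Pcolce2 and Loxl4 are lower in all operated mice, and the other 6 members overlap between groups.

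Genes that act beside the members were counted from fixed lists. Of 7 related proteases and inhibitors tested, 3 were called higher and 4 lower in SHAM and 1 higher and 3 lower in Laminectomy. Furin, a convertase that activates pro-enzymes in the secretory pathway, rose in both (log2 fold changes of 1.17 ± 0.22 and 0.92 ± 0.22), and Pcsk5, another convertase, rose in SHAM (2.43 ± 0.51, edgeR adjusted p = 0.0015) and was at 0.73 ± 0.49 in Laminectomy (adjusted p = 0.22), where it was called without No operation 1 (1.31, adjusted p = 0.025). Pcsk6, a further convertase, fell in both (-2.17 ± 0.25 and -1.82 ± 0.24), as did Timp3, an inhibitor of metalloproteinases and ADAMTS enzymes (-2.18 ± 0.31 and -2.28 ± 0.31). Adamts3 fell in SHAM (-1.48 ± 0.50, edgeR adjusted p = 0.023) and was at -0.70 ± 0.49 in Laminectomy (adjusted p = 0.24). Tll1 was called higher in SHAM (0.55 ± 0.18, edgeR adjusted p = 0.021). The Adamts3 call was lost without No operation 3, SHAM 1 or SHAM 2 (-1.38 to -0.95) and the Tll1 call without No operation 1, SHAM 1 or SHAM 3 (0.46 to 0.50). Tll2 was called lower in both groups at levels of 0.63 to 1.96 CPM without surgery and at most 0.411 CPM after it.

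Of 12 partners in crosslinking, 9 were called higher and 1 lower in each operated group. The collagen lysyl hydroxylases Plod1, Plod2 and Plod3, which prepare the lysines for crosslinking, all rose, with log2 fold changes of 0.93, 1.34 and 1.04 in SHAM and 0.69, 1.79 and 0.99 in Laminectomy. Fkbp10, a chaperone of lysyl hydroxylase 2, rose by 2.05 ± 0.24 and 2.17 ± 0.24, Efemp2, a fibulin that binds lysyl oxidase, by 2.37 ± 0.26 and 1.82 ± 0.26, and Postn, a matricellular protein that brings BMP1 to lysyl oxidase, by 2.56 ± 0.76 and 2.84 ± 0.77. Without No operation 1, whose Postn level stood far above its group, the Postn values were 4.26 and 4.54. Fmod, a collagen-binding proteoglycan that modulates crosslinking in tendon, fell by 3.60 on the log2 scale in SHAM and by 2.45 in Laminectomy, and it is also 1 of the 5 tendon markers given above. Without SHAM 3 the SHAM value was -4.21. Fbln5 and Tgm2 were not called.

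Of 12 substrates of the propeptidases or lysyl oxidases, 8 were called higher and 1, Dcn, lower in each operated group, with Eln among the 8 in SHAM and Col11a1 in Laminectomy. Col3a1 rose by a log2 fold change of 2.84 ± 0.62 in SHAM and 2.17 ± 0.60 in Laminectomy, Col1a1 by 1.81 ± 0.43 and 1.91 ± 0.43, and Col1a2 by 1.26 ± 0.37 and 1.35 ± 0.37. No operation 1 had Col3a1 at 9680 CPM against 1057 to 2180 in the other unoperated mice, and without it the Col3a1 values were 4.03 and 3.35. The chains of type V collagen, which start fibrils, rose by 2.39 and 2.52 for Col5a1 and by 2.13 and 2.20 for Col5a2, with 3.13 and 3.26 for Col5a1 without No operation 1. Eln, which encodes elastin, was called in SHAM (1.89 ± 0.68, edgeR adjusted p = 0.030) and was at 0.46 ± 0.66 in Laminectomy (adjusted p = 0.57). Its SHAM value was 2.71 without No operation 1, and the call was lost without No operation 2, 3 or 4 or SHAM 1 or 3 (1.203 to 1.86), while its Laminectomy value was 1.27 without No operation 1 and not called. Col11a1, a chain of cartilage and fibril-core collagen, was called in Laminectomy (1.76 ± 0.47, edgeR adjusted p = 0.0076) and was at -0.15 ± 0.46 in SHAM (adjusted p = 0.80). Between the operations it was higher in Laminectomy by 1.90 ± 0.48 and did not pass (edgeR adjusted p = 0.12). The Dcn call in SHAM (-0.94 ± 0.35) was lost without No operation 3 or SHAM 2, 3 or 4 (-0.91 to -0.62). No gene of the 3 lists was called between the operations, where 2 proteases, 1 partner and 3 substrates had an unadjusted p below 0.05.

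**Figure D5:**
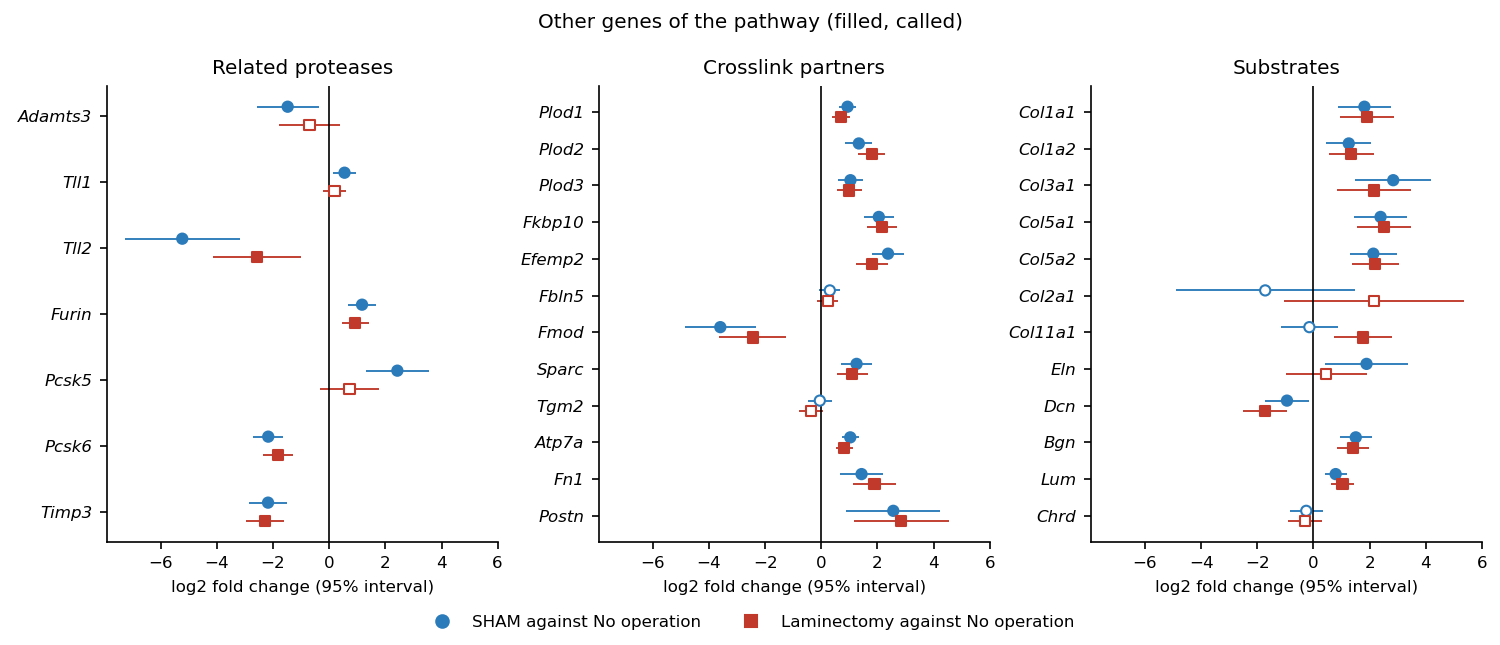
Fitted log2 fold changes with 95% intervals for 7 related proteases and inhibitors, 12 crosslinking partners and 12 substrates in SHAM (circles) and Laminectomy (squares) against No operation; filled symbols are called. In each operated group 9 partners and 8 substrates are called to the right of 0, and Fmod and Dcn are called to the left.

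For 8 of the members the gene with the most similar pattern is given, sought among 10627 genes with a mean of at least 10 CPM, by the root mean square difference of log2 CPM, each gene taken relative to its No operation mean, over the 12 mice. For Loxl3 it was P3h1, a collagen prolyl hydroxylase, at 0.136, with means of 46.4, 132 and 146 CPM in No operation, SHAM and Laminectomy. For Lox it was Ltbp2, a microfibril-associated matrix protein, at 0.264, with means of 38.9, 195 and 191 CPM. Bmp1 was nearest to Ctsb, the lysosomal protease cathepsin B (0.140), and Pcolce2 to Me1, the cytosolic malic enzyme (0.458, the largest distance of these 8). The others given here were Akr1b8 for Loxl2 (0.144), Renbp for Loxl1 (0.165), Frmd4b for Adamts2 (0.230) and Ripk3 for Adamts14 (0.233). These distances describe likeness over these mice only. They are not scaled to the size of a member's own pattern, whose root mean square was 2.24 for Pcolce2 and 0.488 for Adamts2.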

How the data were processed

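Bulk RNA of 12 mice was sequenced from stranded poly(A) libraries. The authors aligned reads with STAR 2.6.1b to GRCm38 (mm10), assigned them with featureCounts 2.0.1 at default settings and deposited a table of estimated counts, of which 10.2% of values were not whole; they were rounded. Values for Loxl2 and Loxl3 were fractional in all 12 mice. Counting at default settings gives whole numbers, and the paper does not state how the fractional values arose. The paper states 3 mice per group without naming them among the 4 of each group here. All 4 were therefore used, and p-values measure the spread between these mice.

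Genes were filtered with filterByExpr, scaled by TMM and fitted over the 3 groups with edgeR 4.0.16 (glmQLFit and glmQLFTest, R 4.3.3), with DESeq2 1.42.0 as an alternative. CPM used TMM library sizes. Shares used the exon union of GENCODE genes, and log2 ratios to collagen a pseudocount of 0.1 CPM; both went into exact permutation tests over mice, two-sided (SciPy 1.17.1), with Benjamini-Hochberg adjustment over 36 and 30 tests. The test script was tested on simulated data, where it missed part of the changed genes; recovery was therefore judged only on genes of low spread, a criterion set after a first run. No 2 replicates agreed within sampling noise (Spearman 0.969 to 0.990). All 10 members are described; of related lists, all genes were counted and the 3 largest called changes per comparison, the other family genes, Col1a1, Col1a2 and Col3a1 were named, while other partners and markers were named after their values were seen. The members and lists were chosen with earlier results of these data known. The nearest genes by pattern of Pcolce and Loxl4 are not reported here.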

Additional observations from a re-analysis of the deposited data

Results flagged for a closer look

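A value was picked out where its gap to the nearest of its group exceeded Dixon's 95% critical value for 4 samples (0.829). Over 96 groups of 4 values this gave 9 values from 6 mice, and chance gives about 5% of groups. In CPM, No operation 1 stood above its group for Bmp1 (210.0, others 149 to 158) and Loxl1 (133, others 43.0 to 58.1), and Laminectomy 1 for Loxl2 (847, others 491 to 551) and Loxl3 (225, others 143 to 157). Laminectomy 1 also had the lowest skeletal muscle and highest macrophage marker sums of its group, and their part in these values was not tested. Among shares of a family, No operation 4 was high for Loxl1 (23.3%, others 18.02% to 18.12%) and Laminectomy 2 for Loxl4 (2.10%, others 1.04% to 1.13%). SHAM 2 had 0.0263% of tolloid transcript as Tll2 where the others had 0. Among log2 ratios to collagen, No operation 4 was high for Adamts14 (-9.70, others -10.98 to -10.79) and SHAM 4 for Loxl2 (-6.00, others -6.64 to -6.62).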

How the results depend on the processing

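The counts of members called stayed within 1.5 times of 9, 8 and 0 in all alternatives run: 2 other fold thresholds, RLE, upper-quartile and total-count scaling, 2 other filters, fits of only the groups compared, a replicate block, DESeq2, each mouse left out, and 4 libraries left out together (No operation 1 and 2, SHAM 1 and Laminectomy 2, chosen after seeing the data). Calls ended for 2 members. Adamts2 in SHAM lost its call with only the groups compared (0.62, edgeR adjusted p = 0.072), with the 4 libraries left out (0.44, adjusted p = 0.29), with a threshold of 1, and without 5 single mice as given above. Pcolce lost its call with a threshold of 1 in both operated groups, and in Laminectomy without No operation 2 (0.49) and with the 4 libraries left out (0.43, edgeR adjusted p = 0.11). With those 4 out, the Lox log2 fold changes were 3.20 in SHAM and 3.16 in Laminectomy, and that of Adamts14 was 3.49 in SHAM.

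Values that turned direction had not passed a test. With the 4 libraries out, Loxl4 was at 0.010 in SHAM, -0.051 in Laminectomy and -0.061 between the operations, and Adamts2 in Laminectomy at -0.017; with total-count scaling Loxl4 in SHAM was at 0.15. With a single mouse left out, log2 fold changes ranged from -0.30 to 0.033 for Loxl4 in SHAM, -0.17 to 0.15 for Loxl4 and -0.11 to 0.28 for Adamts2 in Laminectomy, and -0.22 to 0.32 for Pcolce2 and -0.064 to 0.22 for Loxl4 between the operations. The Loxl2 share difference in Laminectomy was -0.067 percentage points without length scaling. With Col1a1 alone in place of the 3 collagens, log2 ratio differences were -0.026 for Loxl2 in Laminectomy and -0.24 for Pcolce between the operations. With Pdgfra, a fibroblast marker, in their place, they were 1.10 for Bmp1 and 0.61 for Loxl3 in SHAM; 1.26 for Bmp1, 0.32 for Pcolce, 1.45 for Loxl1 and 1.52 for Loxl3 in Laminectomy; and 0.10 for Adamts2, 0.31 for Adamts14, 0.17 for Bmp1, 0.30 for Lox, 0.17 for Loxl1 and 0.40 for Loxl2 between the operations. The denominator alone was changed there. Pdgfra itself had log2 fold changes of 0.85 in SHAM (called), 0.23 in Laminectomy and -0.62 between the operations (neither called). No share or ratio passed under any alternative that was tested. With no p below 0.0286 possible, adjustment can pass a share or ratio only if most of the tests reach that value. This outcome is therefore no measure of stability.

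Same-numbered mice did not all deviate together: their correlations were -0.23 to 0.35 and over 0.1 in 7 of 12, with mice 1 and 3 over 0.1 in all 3 pairs of groups, beside 10 of 36 between different numbers. Since 5 of the 12 were not over 0.1 and not every mouse correlated best with its own number, the replicate block, a fit with the mouse number as a term, is not a paired design. It called 9, 8 and 0 members and changed no call. The 4 mice per group limit each interval, and an exact test on them cannot go below p = 0.0286. Shares and ratios with a mouse left out were computed as values with no test.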
